A study of Mus musculus with 15 samples.

Results

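Thioredoxins, glutaredoxins and the thioredoxin reductases are small oxidoreductases and their electron donors, and 10 of their genes were followed in mouse liver: Txn1, Txn2, Txnrd1, Txnrd2, Txnrd3, Glrx, Glrx2, Glrx5, Nxn and Txndc17. They were chosen by name. Earlier results of these data were known when these genes and the gene lists used below were chosen. All 10 were found among the 35540 gene symbols of the count table, and all 10 were among the 13916 genes with enough counts for a test. Bulk RNA-seq covered 15 liver libraries from mice fed a high-fat diet for 8 weeks, 5 from Txnip knockout mice (KO), 5 from knock-in mice carrying TXNIP C247S (C247S_KI) and 5 from wild-type mice (WT). The diet was common to all 3 groups, and no group on another diet was analysed here. The labels name neither the tissue in which Txnip was deleted, nor the strain, sex or age. Nor do they state that every library is a separate animal, and the p-values therefore describe only how these libraries vary. By its title, the series asks whether the covalent bond between TXNIP and thioredoxin is needed for diet-induced insulin resistance of the liver.

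Thioredoxin reduces disulfides in its client proteins with a pair of active-site cysteines and is itself re-reduced by thioredoxin reductase, a selenoprotein that takes electrons from NADPH. Cytosol and mitochondria hold separate sets, Txn1 with Txnrd1 and Txn2 with Txnrd2. Glutaredoxins do related work with electrons from glutathione, and Glrx5 carries iron-sulfur clusters in mitochondria. TXNIP, the thioredoxin-interacting protein, binds reduced thioredoxin through a disulfide at the cysteine that the C247S change replaces.

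A library held 18047577 to 23379940 estimated counts, and Nxn and Txnrd3, with 37 to 76 and 96 to 176 counts per library, carried the largest counting error of the members. Txnip, the targeted gene, had 70.9, 123, 108, 74.2 and 119 counts-per-million (CPM) in the KO libraries, against 168, 280.2, 99.9, 208 and 205 CPM in the C247S_KI and 180.4, 196, 319.9, 218 and 197 CPM in the WT libraries. It was reduced in KO but not absent (KO against WT log2 fold change -1.17, edgeR adjusted p = 0.00887), and C247S_KI 3 lay inside the KO range. The KO libraries stood apart from the other 10 on the first principal component of all genes. The numbers that open the sample titles also put KO in a range of its own, so the KO genotype and a difference in line or cohort cannot be told apart. Nnt, the mitochondrial transhydrogenase that makes NADPH and is partly deleted in the C57BL/6J substrain, was measured at 111 to 137 CPM in KO, 32.8 to 63.3 CPM in C247S_KI and 49.5 to 66.2 CPM in WT.

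Txnrd2, the mitochondrial thioredoxin reductase, was higher in KO livers than in both other groups, and it was the 1 member of 10 that passed the test in any comparison. Txn1, its cytosolic reductase Txnrd1, mitochondrial Txn2 and the 3 glutaredoxins were at levels whose differences between groups did not pass the test. Between KO and WT, 1 of 10 members rose and 0 fell, beside 6.75% of all genes tested in either direction, 2.56% upward and 4.19% downward. Between C247S_KI and WT, 0 members passed, beside 0.0862% of all genes (12 of 13916; 1371 had an unadjusted p below 0.05, 2 of them members). Between KO and C247S_KI, 1 member rose and 0 fell, beside 10.3% of all genes, 4.41% upward and 5.85% downward. A call of 1 in 10 members is near the share of all genes called in both KO comparisons.

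**Figure D1:**
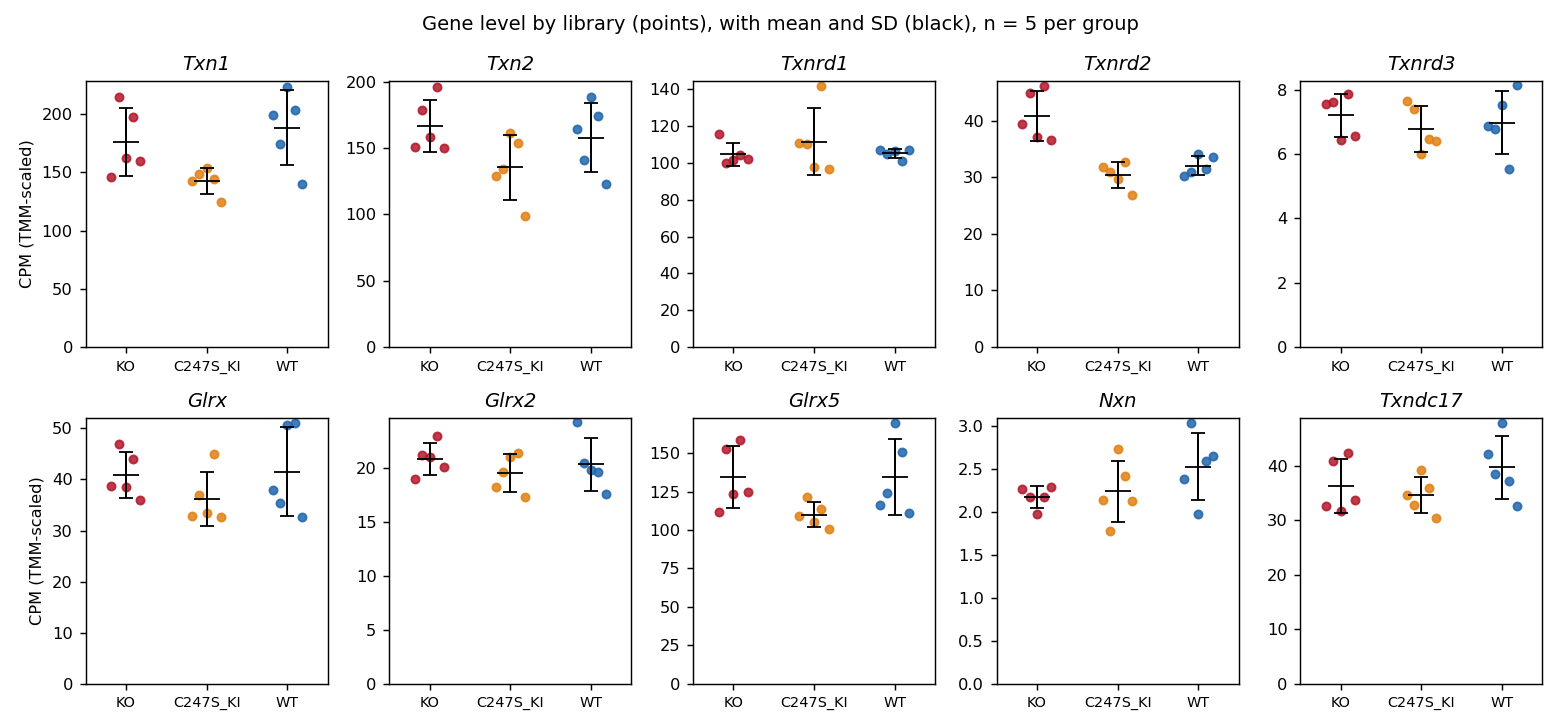
Level of each of the 10 genes in CPM (linear axis from 0) for the 5 KO, 5 C247S_KI and 5 WT libraries as points, with the mean and SD in black. The 5 KO points of Txnrd2, from 36.6 to 46.0 CPM, lie above all points of the other groups, whereas the groups overlap in the 9 other panels.

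The 2 thioredoxins came first in level. Txn1 (ENSMUSG00000028367, chromosome 4, 57943373 to 57956411, minus strand, GRCm38) encodes the cytosolic protein that TXNIP binds. It had 146, 215, 163, 198 and 159 CPM in KO, 142, 149, 154, 144 and 125 CPM in C247S_KI and 199.5, 175, 224, 204 and 139.8 CPM in WT. The C247S_KI libraries lay close together at the low end, with WT 5 among them, and the KO and WT libraries covered about the same range. In C247S_KI against WT the log2 difference was -0.40 (SE 0.14, 95% interval -0.69 to -0.11), which had an unadjusted p of 0.00915 and did not pass the edgeR test over all genes (adjusted p = 0.364). Against C247S_KI, 4 of 5 KO libraries were above all C247S_KI libraries, but the difference of 0.30 had an edgeR adjusted p of 0.162. KO and WT differed by -0.10 (interval -0.38 to 0.19). Txn1 had a single transcript in the table, and its processed pseudogene Txn-ps1 held 3 counts over all 15 libraries.

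Txn2 (ENSMUSG00000005354, chromosome 15, 77915047 to 77929006, minus strand) encodes the mitochondrial thioredoxin. It averaged 167 ± 19.9 CPM in KO, 135 ± 24.7 CPM in C247S_KI and 158 ± 26.3 CPM in WT (SD, n = 5 each). Its groups overlapped in all 3 comparisons, and its edgeR adjusted p was 0.794 for KO against WT, 0.628 for C247S_KI against WT and 0.195 for KO against C247S_KI. C247S_KI 5 was the lowest library of its group in CPM for 8 of the 10 members, Txn1 and Txn2 among them (98.5 CPM for Txn2). Its TMM scaling factor of 1.248, against 0.861 to 1.009 in the rest of its group, lowers its CPM. In unscaled counts its Txn1 (2982) was above that of C247S_KI 3 (2699) and C247S_KI 4 (2567). WT 5 was the lowest of its group for 6 members.

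Txnrd2 (ENSMUSG00000075704) lies on chromosome 16 from 18426384 to 18479073 on the plus strand. It had 39.4, 44.9, 37.1, 46.0 and 36.6 CPM in KO, 31.7, 30.9, 29.6, 32.6 and 26.9 CPM in C247S_KI and 30.2, 30.9, 34.1, 31.5 and 33.5 CPM in WT. In CPM all 5 KO libraries were above all 10 others. Such a pattern without overlap was shown upward by 4.51% of all genes in KO against WT and 4.73% in KO against C247S_KI. The separation did not hold after division by transcript length. Per kb, KO 1, KO 3 and KO 5 lay below WT 3 (25.1 CPM per kb) and C247S_KI 4 (23.5 CPM per kb). KO 2 and KO 4 stayed above all 10 others per kb. The C247S_KI and WT libraries shared a range in CPM. Txnrd2 rose 1.27-fold in KO against WT (log2 0.35, SE 0.09, 95% interval 0.16 to 0.54, edgeR adjusted p = 0.0309) and 1.34-fold in KO against C247S_KI (log2 0.43, SE 0.09, interval 0.23 to 0.62, edgeR adjusted p = 0.00790). In C247S_KI against WT the log2 difference was -0.08 (interval -0.27 to 0.12, edgeR adjusted p = 0.799).

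The call of Txnrd2 in KO against WT stood near the threshold: the adjusted p was 0.0828 without KO 2, 0.0769 without KO 4, 0.0664 without WT 2 and 0.0685 without WT 4. It was 0.0699 with no filter on low counts and 0.110 when libraries were scaled by their totals alone. In KO against C247S_KI the call held in all 10 fits with 1 library left out (log2 0.38 to 0.46, adjusted p 0.00976 to 0.0279).

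**Figure D2:**
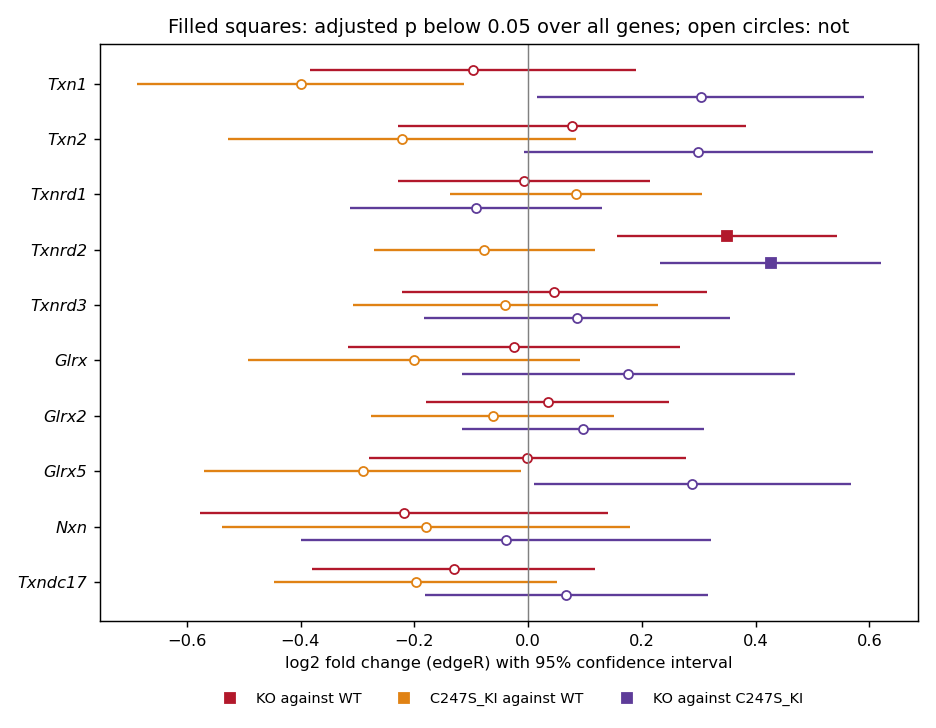
Log2 fold change of each gene (horizontal axis, edgeR, bars are 95% confidence intervals) for KO against WT, C247S_KI against WT and KO against C247S_KI, with filled squares for an adjusted p below 0.05 over all genes. Only the 2 Txnrd2 estimates that involve KO, at 0.35 and 0.43, are filled.

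At the transcript level the higher KO values were those of Txnrd2-203 (ENSMUST00000115606), a protein-coding transcript that starts at 18426417. Its level, scaled over transcripts, was 34.7, 40.9, 29.3, 41.2 and 30.8 CPM in KO, 25.5, 24.8, 24.2, 23 and 20.1 CPM in C247S_KI and 24.5, 25.4, 25.3, 27.2 and 25.8 CPM in WT. All KO libraries were above all others, a pattern whose share over all transcripts was not counted. Most Txnrd2 counts came from this transcript, so its values are not separate from the gene-level ones. Txnrd2-203 made up a mean of 86.0% of the Txnrd2 counts in KO, 77.7% in C247S_KI and 79.3% in WT, with ranges that overlapped (79.1% to 89.9%, 70.9% to 82.5% and 73.7% to 84.0%). Its log2 fold change in KO against C247S_KI was 0.59 (SE 0.11, edgeR adjusted p = 0.0155 over 32585 transcripts), a call lost without KO 2 (0.0524) or KO 4 (0.0617). In KO against WT the difference was 0.46 (SE 0.11, adjusted p = 0.0669).

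Txnrd1 (ENSMUSG00000020250, chromosome 10, 82833951 to 82897712, plus strand) encodes the cytosolic reductase and is a known target of the transcription factor NRF2. It had 116, 99.8, 102, 104 and 102 CPM in KO, 111, 110.1, 98.0, 142 and 96.8 CPM in C247S_KI and 107, 105, 106, 101 and 107 CPM in WT. The WT libraries were almost level, and C247S_KI 4 was the high library. The log2 difference was -0.01 in KO against WT (interval -0.23 to 0.21, edgeR adjusted p = 0.97), 0.08 in C247S_KI against WT (interval -0.14 to 0.31) and -0.09 in KO against C247S_KI (interval -0.31 to 0.13). The interval of KO against WT thus holds no log2 difference larger than 0.23 in either direction.

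The RefSeq table held 16 promoter windows for the 10 members, and the window at the start of Txnrd1-201 and Txnrd1-208 is shown because it held the 1 match to the antioxidant response element among them. The motif searched, TGACNNNGC on both strands, is the one through which NRF2 acts, and 12.4% of 32851 RefSeq promoter windows of the same length held it. Capitals mark the match in chr10:82858956-82859255 (GRCm38.p6, plus strand), which reads on the opposite strand of the motif.
Txnrd1 promoter window: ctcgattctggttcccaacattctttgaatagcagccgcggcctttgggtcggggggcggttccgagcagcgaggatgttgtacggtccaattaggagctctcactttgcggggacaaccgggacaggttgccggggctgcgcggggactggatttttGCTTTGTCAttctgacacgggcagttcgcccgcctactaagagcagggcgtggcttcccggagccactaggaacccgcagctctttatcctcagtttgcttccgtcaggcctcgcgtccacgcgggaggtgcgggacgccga
The E-box CACGTG, the core of the sites that carbohydrate-response factors and clock factors bind, was found in 1 of the 16 windows, at Glrx2, and in 7.15% of all windows. These matches describe letters only.

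The main Txnrd1 transcript, Txnrd1-201, made up 72.0% of the gene's counts in KO, 66.9% in C247S_KI and 74.3% in WT. Txnrd1-206, which starts downstream at 82860301, took 13.6% in KO, 13.1% in C247S_KI and 6.75% in WT, and its counts varied widely within groups, from 114 to 520 in KO, 66 to 521 in C247S_KI and 20 to 234 in WT. Its log2 difference of 1.04 in KO against WT did not pass the edgeR test (SE 0.61, adjusted p = 0.623). Txnrd1-207, a transcript with a retained intron, was close to the detection limit with 1 to 5 counts in KO, 11 to 23 in C247S_KI and 6 to 17 in WT. Its log2 fold change in KO against C247S_KI was -2.45 (SE 0.54, edgeR adjusted p = 0.0321), a call lost in 9 of 10 fits with 1 library left out. Of 58 member transcripts 54 had counts and 29 were tested, and 0, 0 and 2 passed in KO against WT, C247S_KI against WT and KO against C247S_KI, beside 0.641%, 0.00614% and 1.59% of all transcripts.

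**Figure D3:**
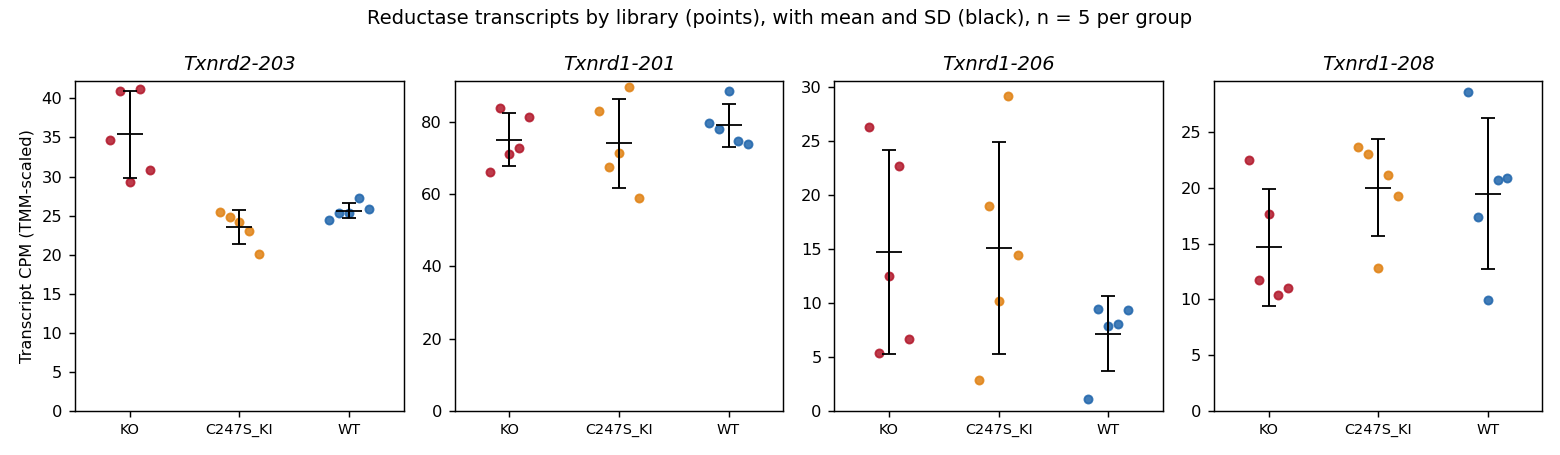
Transcript level in CPM (linear axis from 0) of Txnrd2-203 and 3 Txnrd1 transcripts in each KO, C247S_KI and WT library, with mean and SD in black (n = 5 each). The KO points of Txnrd2-203 lie at 29.3 CPM or above and all others at 27.2 CPM or below, while the Txnrd1 transcripts overlap between groups. The share of all transcripts with such a separation was not counted, and Txnrd2-203 did not pass in KO against WT (edgeR adjusted p = 0.0669).

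Txnrd3 (ENSMUSG00000000811, chromosome 6, 89643988 to 89675529, plus strand), the reductase with a fused glutaredoxin domain best known from testis, was low in all libraries. It averaged 7.21 ± 0.669 CPM in KO, 6.78 ± 0.718 CPM in C247S_KI and 6.98 ± 0.970 CPM in WT (SD, n = 5 each), and its edgeR adjusted p was at least 0.699 in the 3 comparisons. Of the 3 reductases Txnrd2 was thus the 1 that passed, and their changes were not tested against each other.

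Glrx5 (ENSMUSG00000021102, chromosome 12, 105032688 to 105042906, plus strand) had the highest level of the glutaredoxins. It had 112, 153, 124, 159 and 125 CPM in KO, 109, 122, 105, 114 and 100.4 CPM in C247S_KI and 117, 124, 169.7, 151 and 111 CPM in WT. Its C247S_KI libraries lay at the low end, 3 of 5 below all WT libraries, against 1 of 5 for Txn1. The log2 difference was -0.29 in C247S_KI against WT (SE 0.13, interval -0.57 to -0.01, unadjusted p = 0.0420) and 0.29 in KO against C247S_KI (SE 0.13), with edgeR adjusted p of 0.499 and 0.170.

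Glrx (ENSMUSG00000021591, chromosome 13, 75839868 to 75850154, plus strand), the cytosolic glutaredoxin that removes glutathione from protein cysteines, averaged 40.8 ± 4.5 CPM in KO, 36.2 ± 5.23 CPM in C247S_KI and 41.6 ± 8.76 CPM in WT (SD, n = 5 each). Glrx2 (ENSMUSG00000018196, chromosome 1, 143716338 to 143749676, plus strand), the mitochondrial glutaredoxin, averaged 20.9 ± 1.46, 19.5 ± 1.76 and 20.4 ± 2.46 CPM in KO, C247S_KI and WT. Neither passed the edgeR test in any comparison (adjusted p from 0.434 to 0.937), and the largest log2 difference of the pair was -0.20, for Glrx in C247S_KI against WT.

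Nxn (ENSMUSG00000020844, chromosome 11, 76257198 to 76399140, minus strand) encodes nucleoredoxin, which binds Dishevelled of the Wnt pathway. With 42 to 47 counts in KO, 37 to 51 in C247S_KI and 41 to 76 in WT it was the member of lowest level, at 2.18 ± 0.124, 2.24 ± 0.358 and 2.53 ± 0.387 CPM. Its interval in KO against WT, -0.58 to 0.14 on the log2 scale, was the widest of the members in that comparison. Txndc17 (ENSMUSG00000020803, chromosome 11, 72207547 to 72210015, plus strand), also called TRP14, is a cytosolic thioredoxin-related protein that Txnrd1 reduces. It averaged 36.3 ± 4.92 CPM in KO, 34.7 ± 3.33 CPM in C247S_KI and 39.7 ± 5.72 CPM in WT (SD, n = 5 each), with edgeR adjusted p of 0.548, 0.590 and 0.748 for KO against WT, C247S_KI against WT and KO against C247S_KI.

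Over all 10 members the median log2 fold change was -0.005 in KO against WT, with 4 positive and 6 negative values, beside a median of -0.01 over all genes. For C247S_KI against WT it was -0.19, with 9 of 10 values negative and Txnrd1 the exception, beside 0.002 over all genes. In KO against C247S_KI it was 0.14, with 8 of 10 positive, beside -0.03 over all genes. The last 2 comparisons share the C247S_KI libraries, so their medians are not independent. Without C247S_KI 5 the median was -0.14 in C247S_KI against WT and 0.10 in KO against C247S_KI. With 1 library left out the medians ran from -0.03 to 0.05 in KO against WT, -0.21 to -0.12 in C247S_KI against WT and 0.10 to 0.21 in KO against C247S_KI. With libraries scaled by their totals alone, the member median was -0.05 in KO against WT and -0.22 in C247S_KI against WT. It was 0.12 in KO against C247S_KI. Over all genes this scaling gave -0.05, -0.01 and -0.05, in the same order of comparisons.

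Between genes, levels were compared per kb of transcript. The order in WT was Txn1 (179 ± 30.7 CPM per kb), Txn2 (125 ± 21.4), Glrx5 (82.9 ± 15.6), Txndc17 (40.6 ± 5.78), Txnrd1 (34.2 ± 1.28), Glrx (30.7 ± 6.48), Txnrd2 (21.3 ± 2.28), Glrx2 (14.3 ± 2.03), Txnrd3 (2.46 ± 0.341) and Nxn (0.999 ± 0.0714), as mean and SD of 5. In KO, Txn1 was at 168 ± 27.6 and Txnrd2 at 24.9 ± 2.64 CPM per kb. Each neighbouring pair kept this order in 15 of 15 libraries, except Txndc17 over Txnrd1 (8 of 15) and Txnrd1 over Glrx (11 of 15). By group, Txndc17 exceeded Txnrd1 in 3 KO, 1 C247S_KI and 4 WT libraries. Txnrd1 exceeded Glrx in 3 KO, 5 C247S_KI and 3 WT libraries. The order was not tested. Txn1 exceeded Txn2 in every library, by a ratio of 1.13 to 1.53.

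**Figure D4:**
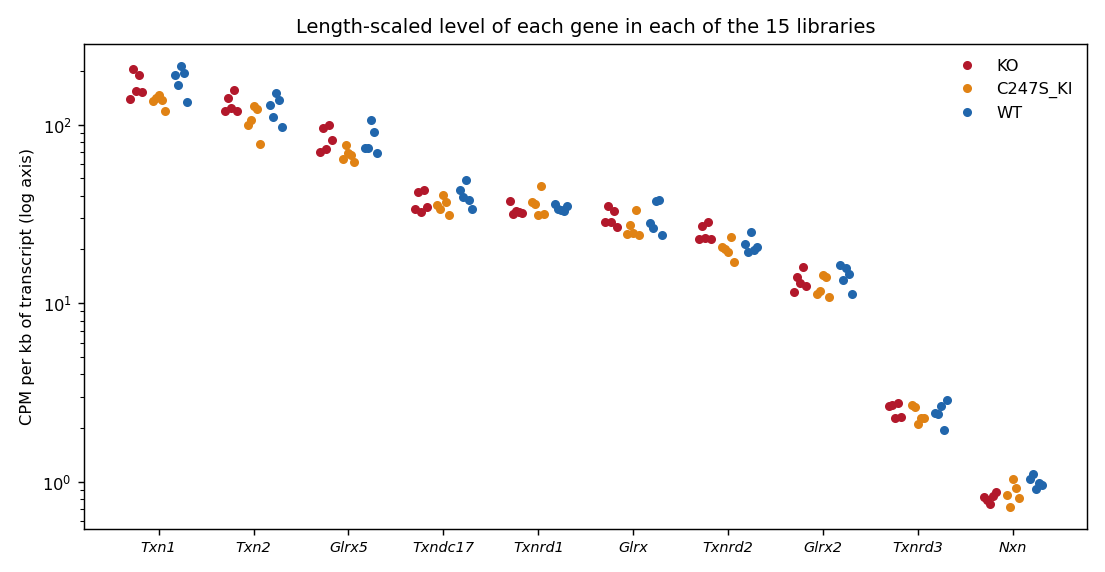
Length-scaled level (CPM per kb of transcript, log axis) of the 10 genes in each of the 15 libraries, ordered by the WT mean. Points of Txndc17, Txnrd1 and Glrx interleave, while Txnrd3 and Nxn lie apart at the low end, near 2.46 and 0.999 CPM per kb in WT.

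The ratio of thioredoxin to its reductase, per kb, was described without a test. Txn1 per Txnrd1 averaged 5.10 ± 1.08 in KO, 3.82 ± 0.604 in C247S_KI and 5.26 ± 0.991 in WT (SD, n = 5 each). Txn2 per Txnrd2 averaged 5.30 ± 0.131 in KO, 5.27 ± 0.783 in C247S_KI and 5.85 ± 0.809 in WT. The Txn2 per Txnrd2 ratio ranged from 5.20 to 5.50 in KO, 4.53 to 6.57 in C247S_KI and 4.66 to 6.93 in WT. In CPM, KO 4 was the highest KO library for 6 of the 10 members, Txn2 and Txnrd2 among them. Whether the narrow KO range is particular to this pair was not tested.

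The transcript of the inhibitor was then set beside that of its target. The ratio of Txnip to Txn1, per kb, was 0.191, 0.237, 0.264, 0.146 and 0.300 in KO, 0.495, 0.750, 0.306, 0.589 and 0.739 in C247S_KI and 0.350, 0.460, 0.680, 0.415 and 0.595 in WT. All KO libraries were below all others, and C247S_KI 3, at 0.306, came next to the highest KO library. The log2 difference of the ratio was -1.14 for KO against WT and -1.31 for KO against C247S_KI. For both, the exact two-sided permutation p was 0.00794, the smallest that 5 against 5 libraries allow. Without division by transcript length the separation from WT held, but KO 3 (0.660) and KO 5 (0.747) lay above C247S_KI 3 (0.649), and the log2 difference of KO against C247S_KI was -1.21 (exact permutation p = 0.0238). The numerator is the targeted gene, whose own log2 fold changes were -1.17 and -0.96, so a lower KO ratio was given by the choice of genotype. The test of the ratio in the KO comparisons therefore says nothing about Txn1, which passed in neither. The ratio of C247S_KI against WT differed by 0.17 (exact permutation p = 0.548).

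**Figure D5:**
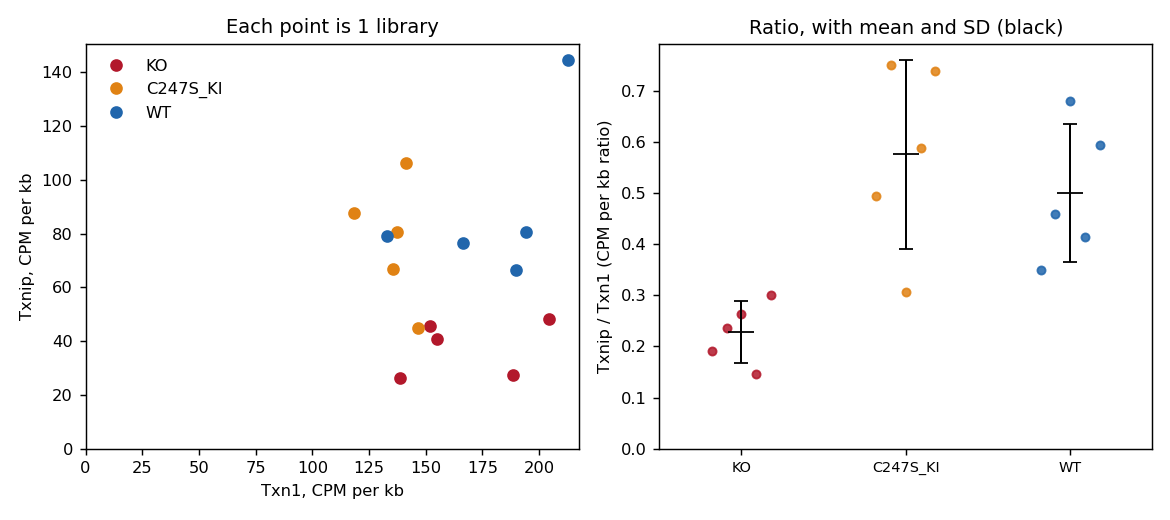
Left, Txnip against Txn1 in CPM per kb with 1 point per library; right, their ratio in the KO, C247S_KI and WT libraries with mean and SD in black (n = 5 each). The KO libraries lie low on the Txnip axis at Txn1 levels that the other groups also reach, with ratios of 0.146 to 0.300, all below the rest per kb; without division by length KO 3 and KO 5 lie above C247S_KI 3.

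The pathways around these genes are described by their counts, to be read beside the 6.75% of all genes called in KO against WT and the 10.3% called in KO against C247S_KI. Of 20 tested thioredoxin-like proteins outside the members, 1 rose and 1 fell in KO against WT: Txndc11, a thioredoxin-domain protein of the endoplasmic reticulum (log2 0.48, edgeR adjusted p = 0.0193), and Dnajc10, a disulfide reductase of the same compartment (-0.53, adjusted p = 0.0197). In KO against C247S_KI, Txnl4b, a thioredoxin-like splicing factor, rose by 0.94 (adjusted p = 0.00417) and Dnajc10 fell by 0.43 (adjusted p = 0.0386). The median over the list was -0.10 in KO against WT and 0.05 in KO against C247S_KI.

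Among 17 clients and partners of thioredoxin, 0 rose and 3 fell in KO against WT: Txnip itself, Rrm2, the small subunit of ribonucleotide reductase (log2 -0.96, edgeR adjusted p = 0.0127), and Srxn1, sulfiredoxin (-0.55, adjusted p = 0.0483). In KO against C247S_KI 1 rose, Prdx5, a peroxiredoxin (0.52, adjusted p = 0.0343), and 3 fell: Txnip, Rrm2 and Msrb3, a methionine sulfoxide reductase (-0.55, adjusted p = 0.0168). Prdx5 and Srxn1 were named after their values were seen. The median over the list was -0.19 in KO against WT and 0.02 in KO against C247S_KI.

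Of 14 tested genes of the glutathione system, 0 passed in KO against WT, where Gclc, the catalytic subunit of glutamate-cysteine ligase, had the lowest p (log2 -0.50, edgeR adjusted p = 0.116). In KO against C247S_KI 2 were higher in KO and 0 lower: Prdx6 (0.55, adjusted p = 0.0132) and Gpx1, the main cellular glutathione peroxidase (0.62, adjusted p = 0.0366). Gpx1 was at 1718 ± 333 CPM in KO, 1119 ± 209 CPM in C247S_KI and 1739 ± 339 CPM in WT (SD, n = 5 each). Its KO level was thus close to that of WT. The median over the list was -0.24 in KO against WT and -0.02 in KO against C247S_KI.

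The reductases are selenoproteins, and of 19 other selenoproteins and factors that make them, 1 rose and 1 fell in KO against WT. Selenoo, a mitochondrial selenoprotein, rose by 0.33 in KO against WT (SE 0.09, edgeR adjusted p = 0.0430) and by 0.43 in KO against C247S_KI (adjusted p = 0.00786). It was measured at 76.0 to 90.5 CPM in KO, 50.8 to 66.5 CPM in C247S_KI and 64.0 to 68.8 CPM in WT, with all KO libraries above all others as for Txnrd2. Selenot, of the endoplasmic reticulum, fell by 0.50 in KO against WT (adjusted p = 0.0445). The list's median was 0.07 in KO against WT and 0.14 in KO against C247S_KI.

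Of 19 genes of iron-sulfur cluster assembly, the pathway in which Glrx5 acts, 1 rose and 0 fell in both KO comparisons. It was Fdxr, the mitochondrial ferredoxin reductase, at 0.41 against WT (edgeR adjusted p = 0.0420) and 0.39 against C247S_KI (adjusted p = 0.0414). The list's median was 0.12 in KO against WT, -0.15 in C247S_KI against WT and 0.28 in KO against C247S_KI.

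Of 16 tested genes that supply NADPH, 1 rose and 2 fell in both KO comparisons. Nnt rose by 1.05 against WT (edgeR adjusted p = 0.000724) and by 1.28 against C247S_KI (adjusted p = 7.64e-05). Me1, cytosolic malic enzyme, fell by 1.56 against WT (adjusted p = 0.0196) and by 1.71 against C247S_KI (adjusted p = 0.00899), and the other gene that fell was Pgd of the pentose phosphate pathway, named after its values were seen. The list's median was -0.14 in KO against WT and -0.05 in KO against C247S_KI.

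Among NRF2, KEAP1 and 19 of their target genes (21 in all), 0 rose and 7 fell in KO against WT, and 0 rose and 5 fell in KO against C247S_KI. Gstm3, a glutathione transferase, fell by 1.82 in KO against WT (edgeR adjusted p = 0.0103) and Hmox1, heme oxygenase, fell by 1.34 in KO against C247S_KI (adjusted p = 0.00241). Txnrd1, which is on this list, did not pass in either. The list's median was -0.45 in KO against WT, -0.11 in C247S_KI against WT and -0.32 in KO against C247S_KI, beside the medians of all genes given above. The list shares Me1, Pgd and G6pdx with the NADPH list, Srxn1 with the clients of thioredoxin, and Gclc, Gclm and Slc7a11 with the glutathione system.

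In C247S_KI against WT, 0 members of any of the 7 lists passed the edgeR test. The list medians not given above were -0.12 for thioredoxin-like proteins, -0.15 for thioredoxin clients and partners and -0.09 for the glutathione system. They were -0.14 for selenoproteins and -0.04 for NADPH supply, beside 0.002 over all genes. The lowest p in each list belonged to Tmx4 (log2 0.39, adjusted p = 0.392), Msra (-0.40, adjusted p = 0.326), Gpx1 (-0.64, adjusted p = 0.288), Dio1 (-0.43, adjusted p = 0.465), Iscu (-0.38, adjusted p = 0.288), Idh2 (-0.41, adjusted p = 0.408) and Ephx1 (-0.49, adjusted p = 0.472).

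Genes with a profile most like that of 3 members were found by the root mean square difference of centred log2 CPM over the 15 libraries, among 12294 genes with a mean of at least 1 CPM. For Txnrd2 they were Selenoo (0.0730), Phyhd1 (0.0874) and Surf1 (0.0879), where the median gene differed by 0.345. For Txn1 they were Pop4 (0.0733), Skp1a (0.0902) and Cox6a1 (0.0903), where the median gene differed by 0.381. For Txnrd1, which varied least, they were Hnrnpf (0.0720), Fbxl17 (0.0801) and Mcmbp (0.0863), where the median gene differed by 0.311.

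Some markers of the cell types of liver also differed between groups. In bulk RNA fewer cells of a type and less RNA per cell cannot be told apart. The calls stand beside 6.75% of all genes called in KO against WT (4.19% downward) and 10.3% in KO against C247S_KI (5.85% downward). The summed level of 6 hepatocyte markers was 54994 to 80167 CPM in KO, 72325 to 116307 CPM in C247S_KI and 85327 to 105428 CPM in WT, and all 6 were detected. In KO against WT 1 of the 6 fell, Alb, albumin (log2 -0.80, edgeR adjusted p = 0.0294), and 0 rose, with a list median of -0.08. Against C247S_KI, Alb fell by 0.80 in KO (adjusted p = 0.0218) and Cyp2e1, a cytochrome P450, rose by 0.77 (adjusted p = 0.0141), with a list median of 0.03. The hepatocyte sums of all 5 KO libraries lay below those of all 5 WT libraries. Alb alone held a large part of these sums, with 38229 ± 6214 CPM in KO and 66438 ± 5063 CPM in WT (SD, n = 5 each). The sums therefore do not describe the other markers. Of 8 macrophage markers 2 fell in KO against WT, Gpnmb and Trem2 (list median -0.52). In C247S_KI against WT 0 of the 8 passed, with a list median of -0.63. The list median was 0.10 in KO against C247S_KI. Gpnmb was close to the detection limit (0.37 ± 0.19 CPM in KO and 2.43 ± 1.32 CPM in WT, SD, n = 5 each). The 8 macrophage markers summed to 139 to 214 CPM in KO, 144 to 219 CPM in C247S_KI and 206 to 286 CPM in WT. Of 6 endothelial markers 2 fell in KO against WT, Pecam1 and Lyve1. The endothelial list median was 0.02 there and 0.28 in KO against C247S_KI. Endothelial sums were 132 to 224 CPM in KO, 126 to 181 CPM in C247S_KI and 106 to 266 CPM in WT. Of 6 stellate markers 1 fell in KO against WT, Col3a1 (list median -0.49). Stellate sums were 77.5 to 276 CPM in KO, 217 to 368 CPM in C247S_KI and 293 to 363 CPM in WT. Of 6 erythroid markers 0 passed in KO against WT (sum 1236 to 3767 CPM in KO, 714 to 3273 CPM in C247S_KI and 558 to 1955 CPM in WT). Cholangiocyte markers summed to 25.5 to 38.0 CPM in KO, 46.5 to 121 CPM in C247S_KI and 34.7 to 53.3 CPM in WT, and 2 of 5, Spp1 and Sox9, fell in KO against C247S_KI. Neutrophil markers summed to 16.5 to 182 CPM in KO, 107 to 190.1 CPM in C247S_KI and 58.2 to 218 CPM in WT, with 0 of 4 called. Markers of T, NK and B cells, 4 of 6 tested, stayed at 9.42 CPM or below in sum. Adipocyte markers, 1 of 4 tested, summed to 1.21 to 3.52 CPM in KO, 7.81 to 48.6 CPM in C247S_KI and 3.52 to 25.3 CPM in WT. Each of these 2 lists had 1 lower call in KO against WT, Ms4a1 and Cfd. Ms4a1 was close to the detection limit (0.28 ± 0.12 CPM in KO and 1.15 ± 1.08 CPM in WT, SD, n = 5 each). In KO against C247S_KI, Gpnmb, Lyve1, Cfd and the erythroid marker Slc4a1 were also called lower, while the erythroid list median was 0.39. The part of these differences in the Txnrd2 result was not tested.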

How the data were processed

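Bulk liver RNA was measured in 15 libraries, 5 per group, with groups and replicate numbers from the sample titles. Values are the authors' deposited estimated counts, whole numbers per transcript, from kallisto 0.50.1 on reads trimmed by Trimmomatic 0.39, per the submitters' processing notes. DESeq2 and mm10 are named there too. The transcript set and the use of strand are not given in the sources. Reads that match several transcripts were thus divided before deposit, which makes single transcripts less certain than genes. Transcripts were matched to GENCODE M21 (GRCm38) by identifier without version (114331 of 115911, 98.64%; 13 with the same version), and the 1580 unmatched, 0.366% to 0.459% of a library's counts, were left out. Counts were summed per symbol; rounding changed nothing.

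Genes kept by filterByExpr (minimum count 10, minimum total 15) entered 1 quasi-likelihood fit of all 15 libraries (edgeR 4.0.16, R 4.3.3; group means, TMM), with Benjamini-Hochberg adjusted p below 0.05 over all genes as the threshold; transcripts were fitted alike. SE is the log2 fold change over the root of F. CPM are TMM-scaled; their log2 values add a prior count of 2. The fit was tested on simulated counts. The members, lists and rules were chosen with earlier results of these data known. All members and Txnip are named; each list gives up to 2 called genes with the lowest p per comparison, or the gene with the lowest p. Promoter windows are RefSeq's (GRCm38.p6). A result on a withheld item is not reported here. Alternatives were DESeq2 1.42.0, limma-voom (limma 3.58.1), RLE factors, no count filter, a transcript minimum count of 20, 2-group fits, protein-coding transcripts, a replicate block, an unscaled ratio and leaving out each library; library totals as scaling and leaving out the farthest library of each group were chosen after seeing the data. Libraries of 1 group differed beyond counting noise, so none was counted as a copy. Python 3.11.15 with scipy 1.17.1 was used for exact tests.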

Additional observations from a re-analysis of the deposited data

How the results depend on the processing

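Txnrd2 kept its direction in every fit run. Its call in KO against WT held with DESeq2, limma-voom, RLE factors, the 2-group fit, protein-coding transcripts, the replicate block and without the farthest library of each group, and was lost where the report says. With 1 library left out, 0 to 1 members were called in KO against WT, 0 to 0 in C247S_KI against WT and 1 to 1 in KO against C247S_KI; with no count filter and with library totals the KO against WT count was 0. Member transcripts called in KO against C247S_KI ranged from 0 to 2 with 1 library left out (0 to 0 in the other comparisons), and were 1 with limma-voom, with a minimum count of 20, with the replicate block and without the farthest libraries; a minimum count of 20 gave 1 in KO against WT.

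Genes called in KO against WT were 1498 with DESeq2 and 514 with library totals, and 521 to 928 with 1 library left out. In C247S_KI against WT they were 65 with DESeq2, 20 with no filter, 6 in the 2-group fit, 6 with the replicate block, 7 with library totals and 4 to 24 with 1 library left out. In KO against C247S_KI they were 788 without the farthest libraries and 784 to 2272 with 1 library left out. The cause was not tested. Replicate numbers did not pair the libraries (correlations of same-numbered deviations from -0.141 to 0.381).

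Only estimates near 0, none of them called, changed sign. In KO against WT these were Txnrd1 with no filter (0.0019) and with protein-coding transcripts (0.0019); Glrx5 with DESeq2 (0.0024), limma-voom (0.0037), RLE factors (0.0006), no filter (0.0094), the 2-group fit (0.0015) and the replicate block (0.0005); and, with library totals, Txnrd3 (-0.0007) and Glrx2 (-0.0012). In C247S_KI against WT it was Glrx2 without the farthest libraries (0.0415). With 1 library left out, signs changed for Txnrd1 (-0.0359 to 0.0212), Txnrd3 (-0.0159 to 0.1168), Glrx (-0.0921 to 0.0691), Glrx2 (-0.0033 to 0.1143) and Glrx5 (-0.0554 to 0.1008) in KO against WT, Txnrd1 (-0.0182 to 0.136), Txnrd3 (-0.1064 to 0.0263) and Glrx2 (-0.1037 to 0.014) in C247S_KI against WT, and Txnrd1 (-0.1417 to 0.0193) and Nxn (-0.1013 to 0.0351) in KO against C247S_KI. The Txnip to Txn1 ratio kept direction and side of 0.05, also without division by length (-1.08, 0.13 and -1.21 in KO against WT, C247S_KI against WT and KO against C247S_KI), and was -1.25 to -0.99 in KO against WT, 0.06 to 0.38 in C247S_KI against WT and -1.52 to -1.16 in KO against C247S_KI with 1 library left out. In the KO comparisons the numerator of this ratio is the targeted gene, so its stability says nothing about Txn1. Depth limits Nxn and Txnrd3 most.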
